A study of Mus musculus with 6 samples.

Results

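Genes of DNA replication and of the G1/S step of the cell cycle were examined in mouse back epidermis after loss of Spry1. The group holds 41 genes, taken by symbol from the 54532 genes of the expression table: G1 cyclins and their kinases, E2F and pocket proteins, origin licensing factors, helicase activators, replication enzymes, nucleotide synthesis enzymes and replication-coupled chromatin factors. The 3 Control samples came from Spry1flox/flox mice, and the 3 knockout samples from Spry1flox/flox mice that also carried K14-Cre-ERT2. Both alleles of Spry1, which encodes an inhibitor that growth factor signalling through Ras and ERK induces against itself, are flanked by recombination sites in every sample. K14-Cre-ERT2 is a recombinase that tamoxifen activates. The keratin 14 promoter that drives it is used by basal keratinocytes, so cells of the epidermis other than keratinocytes are not its direct target. Which keratinocyte layers had lost Spry1 was not measured here. Controls and knockouts alike received tamoxifen in corn oil by gavage over 4 weeks, with 4 doses of 0.1 mg per g in each week. No age is given for the mice. No group carried the Cre without the floxed Spry1 alleles, so what the Cre does and what the loss of Spry1 does cannot be told apart. Nothing in the labels states that each sample is its own animal, and p-values therefore cover the spread among these 6 samples, which may be technical.

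A cell enters S phase when D-type cyclins with Cdk4 or Cdk6, and then E-type cyclins with Cdk2, phosphorylate the retinoblastoma family (the pocket proteins) and release E2F transcription factors. E2F targets include the licensing factors that load the MCM helicase onto origins in G1, the enzymes that copy DNA, and the enzymes that make deoxynucleotides. In the epidermis these genes are used mainly by dividing basal keratinocytes, while suprabasal cells leave the cell cycle as they differentiate.

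Levels are given as FPKM, fragments scaled to gene length and library size. They can be set side by side between genes only within the limits of the length used, which takes in all annotated exons of a gene. Orders of abundance given below are orders of FPKM. Differences are given as log2 changes, knockout minus Control, on the log2(FPKM + 1) scale, which understates the change of low genes. Adjusted p-values are from limma with Benjamini-Hochberg adjustment over the 12629 genes whose mean reached 1 FPKM, with a threshold of 0.05. Reads recovered from the FPKM values summed to between 18379037 and 21020461 per sample. Spry1 itself was at 25.8, 28.2 and 34.4 FPKM in the controls and at 1.06, 1.49 and 1.28 FPKM in the knockouts (log2 change -3.74, SE 0.13, adjusted p = 7.21e-06, limma). There were 2 samples that stood apart. Control replicate 3 correlated less with the other controls (0.962 and 0.964, across genes) than those did with each other (0.986). Knockout replicate 2 alone had a clear level of the Y-linked genes Eif2s3y (19.25 FPKM, against 0 to 0.203 in the other 5 samples) and Ddx3y (15.89 FPKM). Xist, the RNA of the silenced X of females, was at 1.307 FPKM there and at 19.98 to 89.09 FPKM elsewhere. The knockouts thus differed in sex and were not all from 1 animal, and sex was not in the model. Control replicate 3 bears on most of the genes below, so results are also given without it. It was the highest control in 36 of the 41 genes, and leaving it out can only raise their log2 changes. A call gained in this way is not separate support for a rise.

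Most of the replication and G1/S genes were higher in the knockouts. Of the 41 genes, all of which passed the filter, 25 rose, 2 fell (Ccnd2 and Rb1) and 14 did not pass the test. Of all genes tested, 29.6% rose and 24.4% fell. The median log2 change was 0.65 over the 41 genes and 0.03 over all genes tested. The 25 genes that rose covered log2 changes from 0.28 (Rfc3) to 2.15 (Rrm2), or ratios of group means from 1.25 to 5.50. In each of these 25 genes the 3 knockouts lay above the 3 controls, an arrangement found in 34.9% of all genes tested. In Ccnd2 and Rb1 the knockouts lay below all controls, as in 29.4% of all genes. The number that rose was 34 of 41 without Control replicate 3 (31.6% of all genes then rose), 22 of 41 without knockout replicate 2, 35 of 40 without both, and 15 of 41 when each sample was scaled to the same FPKM sum (TPM scaling, under which 16.1% of all genes rose). That scaling shifts the median of all genes by -0.23 on the log2 scale, with 2038 genes higher and 4506 lower in place of 3736 and 3079, and Pcna, Cdk4, Mcm4, Uhrf1, Lig1, Rfc3, E2f2, Pola1, Ccne2 and Fen1 then no longer passed.

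**Figure D1:**
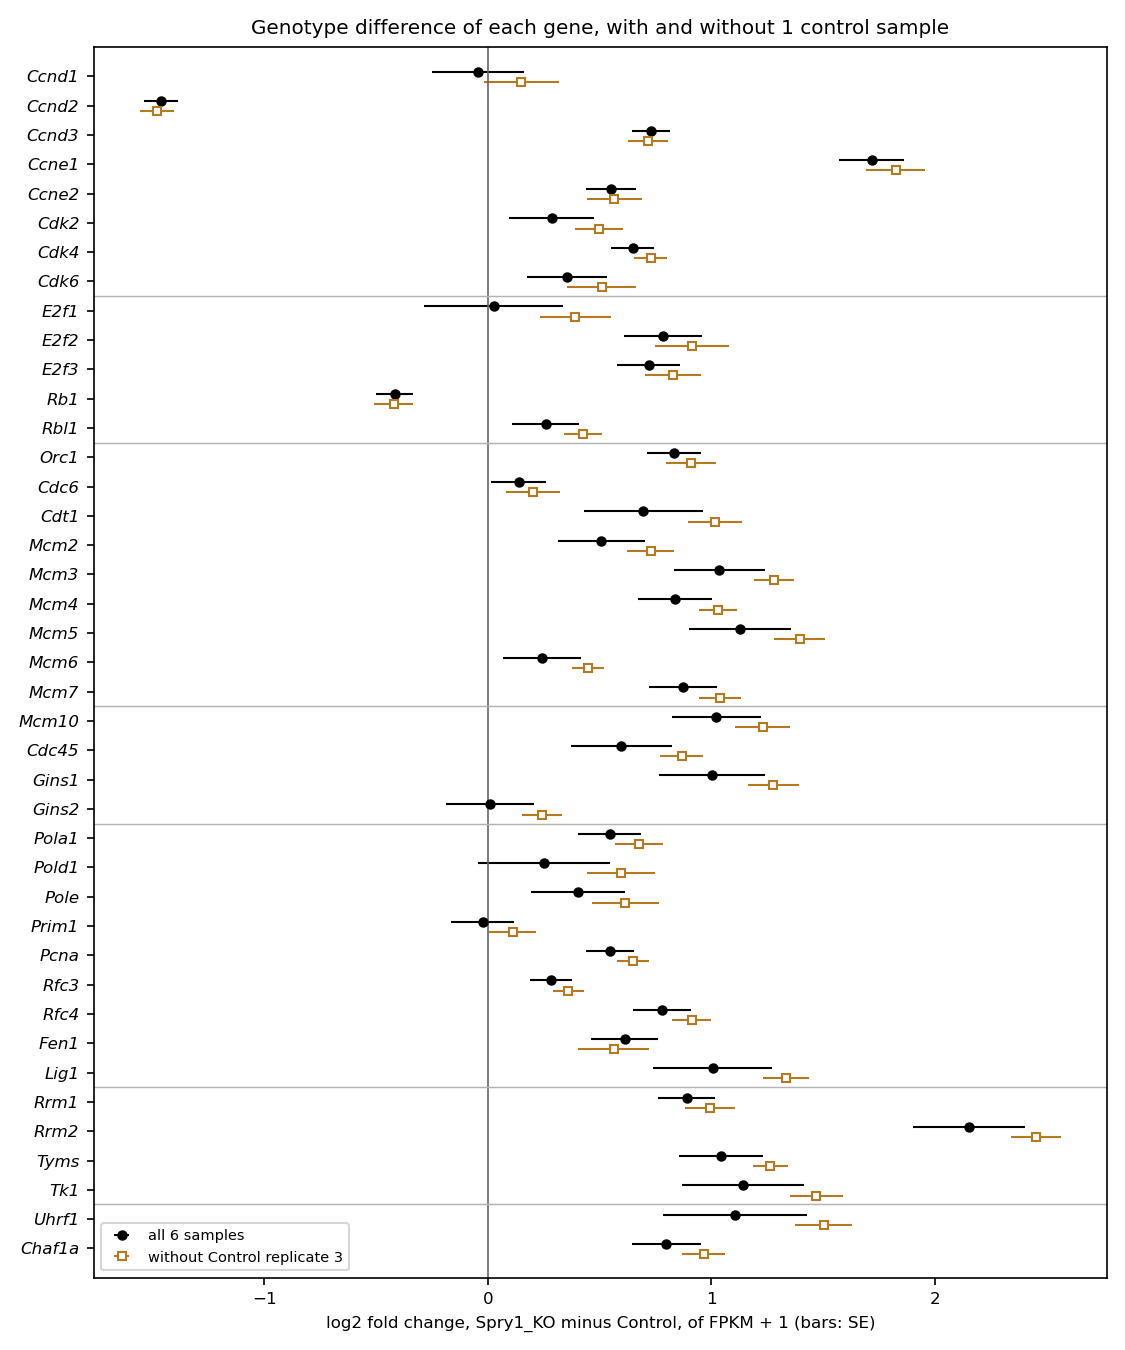
Log2 change, knockout minus Control, on the log2(FPKM + 1) scale for each of the 41 genes, grouped by role, with bars of 1 SE from limma; filled points use all 6 samples and open squares leave out Control replicate 3. Rrm2 (2.15) and Ccne1 (1.72) lie farthest to the right and Ccnd2 (-1.46) farthest to the left.

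The cyclins did not move together. Ccne1, which encodes cyclin E1, the partner of Cdk2 at S-phase entry, had the largest ratio of means of all 41 genes. It was at 0.907, 0.863 and 1.35 FPKM in the controls and at 5.66, 6.67 and 4.82 FPKM in the knockouts (log2 change 1.72, SE 0.15, adjusted p = 0.000167, limma; ratio 5.50). The lowest knockout was well above the highest control. Ccne2, for cyclin E2, rose less, from 2.78, 3.49 and 3.23 FPKM to 5.61, 5.24 and 4.49 FPKM (log2 change 0.55, SE 0.11, adjusted p = 0.0057, limma). Of the exon bases of Ccne2, 17.4% are shared with Ints8. The ratio of Ccne1 to Ccne2, chosen after the values were seen, was 0.326, 0.247 and 0.418 in the controls and 1.01, 1.27 and 1.07 in the knockouts, so cyclin E1 RNA was the lesser of the pair in every control and in no knockout.

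Among the D cyclins, which link mitogen signals to Cdk4 and Cdk6, one fell, one rose and one did not pass. Ccnd2 was at 41.5, 43.5 and 40.7 FPKM in the controls and at 13.8, 15.4 and 14.6 FPKM in the knockouts (log2 change -1.46, SE 0.08, adjusted p = 2.88e-05, limma). The replicates of each genotype were close together, and this was the lowest adjusted p of the 41 genes. Ccnd3 rose from 4.79, 5.53 and 4.96 FPKM to 9.51, 8.58 and 9.22 FPKM (log2 change 0.73, adjusted p = 0.000569, limma). Ccnd1, which overlaps another gene over 23.4% of its exon bases, was at 16.8, 16.6 and 25.4 FPKM in the controls and at 16.7, 23.8 and 16.2 FPKM in the knockouts (log2 change -0.04, SE 0.21, adjusted p = 0.877, limma). Its highest control and its highest knockout were Control replicate 3 and knockout replicate 2, the samples that stood apart. As a share of the summed D cyclin FPKM, also chosen after the values were seen, Ccnd2 made up 65.7%, 66.3% and 57.3% in the controls and 34.4%, 32.2% and 36.6% in the knockouts. Ccnd1 was then the most abundant D cyclin RNA in every knockout, at 41.8%, 49.9% and 40.4%, and Ccnd2 in every control. As these shares are of the same sum, the lower share of Ccnd2 raises those of the others. The summed D cyclin level was 63.1 to 71.0 FPKM in the controls and at 40.0 to 47.8 FPKM in the knockouts.

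Of the kinases, Cdk4 rose from 36.7, 40.3 and 45.5 FPKM to 64.8, 63.7 and 64.6 FPKM (log2 change 0.65, SE 0.10, adjusted p = 0.00152, limma), although 19.7% of its exon bases are shared with Tspan31. Cdk6 (3.70, 3.79 and 5.56 FPKM in the controls, 5.89, 4.601 and 6.98 FPKM in the knockouts, adjusted p = 0.137, limma) did not pass. Cdk2, the partner of the E cyclins, was at 6.18, 5.65 and 9.73 FPKM in the controls and at 9.79, 8.81 and 7.78 FPKM in the knockouts (adjusted p = 0.236, limma). In both kinases Control replicate 3 overlapped the knockouts while the other controls lay below all of them, and without it they passed (Cdk6 adjusted p = 0.0323 and Cdk2 adjusted p = 0.0097, limma).

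**Figure D2:**
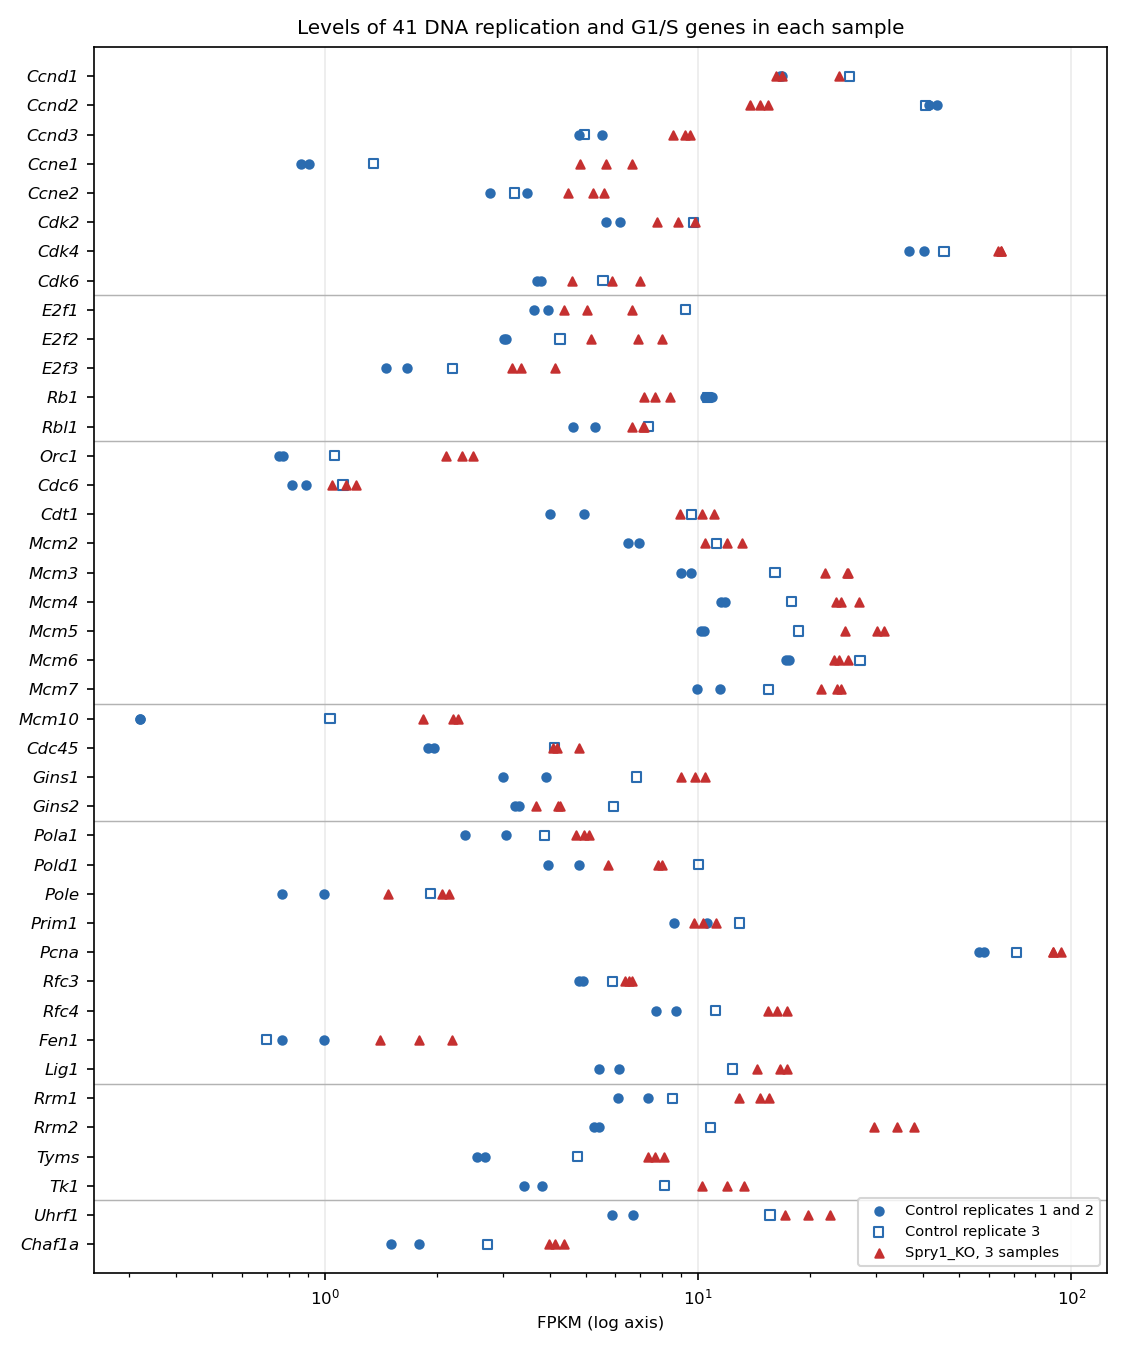
FPKM on a log axis in each of the 6 samples for the 41 genes, grouped by role, with Control replicates 1 and 2 as filled circles, Control replicate 3 as an open square and the knockouts as triangles. Pcna is highest in both groups (means 62.0 and 90.6 FPKM), and Control replicate 3 lies between the other controls and the knockouts, or among the knockouts, for many genes.

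Of the 5 E2F activators and pocket proteins, 2 were higher and 1 was lower. Of all genes tested, 29.6% rose and 24.4% fell, and counts on so few genes do not set the group apart. E2f2 rose from 3.01, 3.06 and 4.27 FPKM to 6.89, 8.003 and 5.17 FPKM (log2 change 0.78, SE 0.17, adjusted p = 0.00815, limma). E2f3 rose from 1.46, 1.66 and 2.20 FPKM to 4.14, 3.37 and 3.17 FPKM (log2 change 0.72, SE 0.14, adjusted p = 0.00495, limma). Both encode activators of S-phase genes, and the knockouts lay above every control. E2f1, the third activator, was at 3.64, 3.95 and 9.24 FPKM in the controls and at 5.05, 4.37 and 6.65 FPKM in the knockouts (log2 change 0.03, SE 0.31, adjusted p = 0.95, limma). Its highest value was in Control replicate 3. Without that sample E2f1 still did not pass (log2 change 0.39, adjusted p = 0.0786, limma), and without both that sample and knockout replicate 2 it did (adjusted p = 0.0326, limma). Rb1, which encodes the retinoblastoma protein that holds E2Fs in check, fell from 10.9, 10.5 and 10.6 FPKM to 7.15, 7.65 and 8.42 FPKM (log2 change -0.42, SE 0.08, adjusted p = 0.00531, limma). Its relative Rbl1, for p107, was at 4.61, 5.28 and 7.36 FPKM in the controls and at 7.16, 7.14 and 6.63 FPKM in the knockouts (adjusted p = 0.183, limma; 0.00755 without Control replicate 3).

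Origin licensing loads the 6-subunit MCM helicase onto DNA. Of the 9 licensing genes, 5 rose and none fell, where 29.6% of all genes tested rose. Without Control replicate 3, 8 rose, where 31.6% of all genes did. Orc1, a subunit of the origin recognition complex, rose from 0.773, 0.754 and 1.06 FPKM to 2.33, 2.50 and 2.11 FPKM (log2 change 0.83, SE 0.12, adjusted p = 0.00143, limma). Cdc6 and Cdt1 bring MCM to the recognised origin. Cdc6 was low throughout, at 0.818, 0.889 and 1.12 FPKM in the controls and at 1.14, 1.21 and 1.05 FPKM in the knockouts (adjusted p = 0.379, limma). Cdt1 was at 4.00, 4.95 and 9.61 FPKM in the controls and at 11.0, 10.2 and 8.94 FPKM in the knockouts (log2 change 0.70, SE 0.27, adjusted p = 0.0631, limma). Here Control replicate 3 lay among the knockouts, and without it the adjusted p was 0.00101 (limma).

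The log2 changes of the MCM subunits ranged from 0.24 (Mcm6) to 1.13 (Mcm5). Mcm5 rose from 10.2, 10.4 and 18.5 FPKM to 30.2, 31.4 and 24.7 FPKM (log2 change 1.13, SE 0.23, adjusted p = 0.00565, limma). Mcm3 rose from 8.99, 9.59 and 16.1 FPKM to 25.04, 25.2 and 21.9 FPKM (log2 change 1.04, SE 0.20, adjusted p = 0.00516, limma). Mcm7 (log2 change 0.87, adjusted p = 0.00313, limma) and Mcm4 (log2 change 0.84, adjusted p = 0.00525, limma) rose with them. Mcm2, at 6.48, 6.95 and 11.2 FPKM in the controls and at 13.07, 11.95 and 10.44 FPKM in the knockouts, did not pass (adjusted p = 0.0635, limma; 0.00217 without Control replicate 3). Mcm6 was at 17.2, 17.6 and 27.1 FPKM in the controls and at 25.3, 23.1 and 23.8 FPKM in the knockouts (log2 change 0.24, SE 0.17, adjusted p = 0.271, limma; log2 change 0.45 and adjusted p = 0.00311 without Control replicate 3). Its highest sample was a control.

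Because these subunits act as 1 complex, each was also expressed as a share of the summed MCM2-7 FPKM of its sample, a quantity that does not depend on how a sample was scaled. The sum was 64.5, 67.4 and 106.2 FPKM in the controls and at 144.6, 139.3 and 125.6 FPKM in the knockouts. Mcm6 held 26.6%, 26.1% and 25.6% of it in the controls and 17.5%, 16.6% and 19.0% in the knockouts. Mcm5 held 15.7%, 15.4% and 17.5% in the controls and 20.9%, 22.6% and 19.6% in the knockouts, and Mcm3 13.9%, 14.2% and 15.1% against 17.3%, 18.1% and 17.4%. Mcm2 held 10.1%, 10.3% and 10.6% against 9.04%, 8.58% and 8.32%. For these 4 subunits the shares of the groups did not overlap, with Control replicate 3 nearer to the other controls than to the mean of the knockouts, although its summed level was well above theirs. The shares of Mcm4 and Mcm7 overlapped. Mcm6 was the most abundant subunit in every control and Mcm5 in every knockout. Because the shares are of the same sum, a lower share of 1 subunit raises those of others. For the FPKM levels of all genes tested, the knockouts lay above all controls in 34.9% and below them in 29.4%. No such rate was worked out for shares, and no test was run on them.

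**Figure D3:**
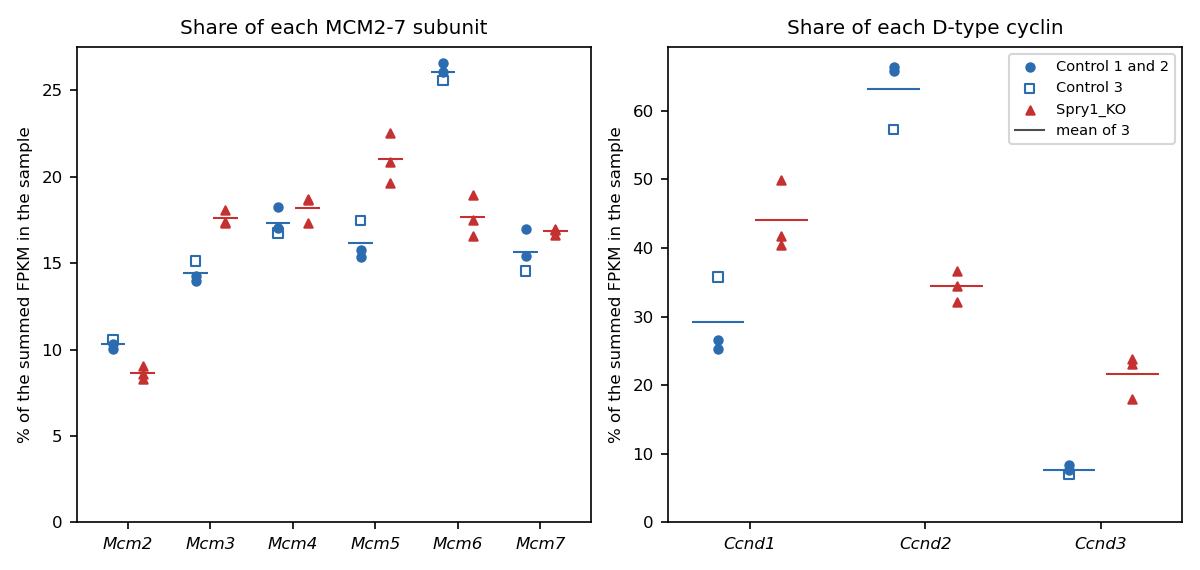
Share of the summed FPKM, in percent, held by each MCM2-7 subunit (left) and by each D cyclin (right) in each of the 6 samples, with lines at the group means. Mcm6 drops from 25.6% to 26.6% in the controls to 16.6% to 19.0% in the knockouts, while Mcm5 and Mcm3, and Ccnd1 and Ccnd3 among the D cyclins, hold larger shares in every knockout than in any control.

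Promoter sequence was examined for these genes because E2F is the best known common regulator of the group. RefSeq promoter windows (GRCm38.p6, from 250 bases before to 50 after the annotated start) were found for 33 of the 41 genes. They were searched on both strands for 4 strings of the E2F type, TTTGGCGC, then TTTCCCGC, then TTTGGCGG, and finally TTTCGCGC, which can overlap each other, and for CCAAT, the core letters bound by NF-Y. At least 1 of the E2F strings was in the windows of 17 of the 33 genes (51.5%), against 2.7% of all 27025 genes with a window. Counted by window rather than by gene, the share was 41.5% of 41 windows, against 2.37% of all 32851 windows. Of the further replication genes described below, 14 of the 34 with a window (41.2%) held an E2F string, so these letters are not particular to the 41 genes. CCAAT was present for 20 of the 33 genes (60.6%), against 41.1% of all genes. An E2F string was found for 11 of the 22 genes with a window that rose and for 6 of the 11 that did not pass. Ccnd2 and Rb1, the genes that fell, have no window in the table. The 180 bases before the start are printed for Mcm5 and Mcm6, the subunits with the largest and the smallest log2 change, and for Rrm2, the gene with the largest log2 change. They are written 5′ to 3′ in the direction of the gene, and capitals mark the E2F letters (with the 12-base run described next) and CCAAT or its reverse complement.
Mcm5 (chr8:75109329-75109508, plus strand): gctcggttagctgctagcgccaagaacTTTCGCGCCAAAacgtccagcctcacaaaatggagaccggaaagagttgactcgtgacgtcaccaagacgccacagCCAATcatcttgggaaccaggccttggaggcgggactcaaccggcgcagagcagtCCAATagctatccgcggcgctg
Mcm6 (chr1:128359706-128359885, minus strand): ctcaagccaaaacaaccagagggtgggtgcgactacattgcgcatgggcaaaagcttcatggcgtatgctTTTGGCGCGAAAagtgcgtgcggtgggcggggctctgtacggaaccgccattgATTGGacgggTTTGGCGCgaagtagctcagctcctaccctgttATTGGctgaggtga
Rrm2 (chr12:24708074-24708253, plus strand): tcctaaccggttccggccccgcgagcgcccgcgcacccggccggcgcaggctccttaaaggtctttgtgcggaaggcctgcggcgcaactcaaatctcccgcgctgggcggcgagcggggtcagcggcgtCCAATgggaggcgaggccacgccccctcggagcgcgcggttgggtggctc
Mcm5 and Mcm6 carried the same 12-base run in opposite orientation, TTTCGCGCCAAA in Mcm5 and its reverse complement TTTGGCGCGAAA in Mcm6. That run occurred in 4 of the 32851 windows (0.0122%), those of Mcm5, Mcm6, Msh3 and Mycn. The run was taken from the Mcm5 window itself, and no other 12-base string was counted, so its rarity has nothing to be read against. Mcm6 carried 1 more E2F string nearer its start, and Rrm2 held none of the 4 strings in the printed stretch, with 1 CCAAT. The last 13 printed bases of Rrm2 lie in an annotated Rrm2 exon. A match of letters is a description and was not tested for binding.

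**Figure D4:**
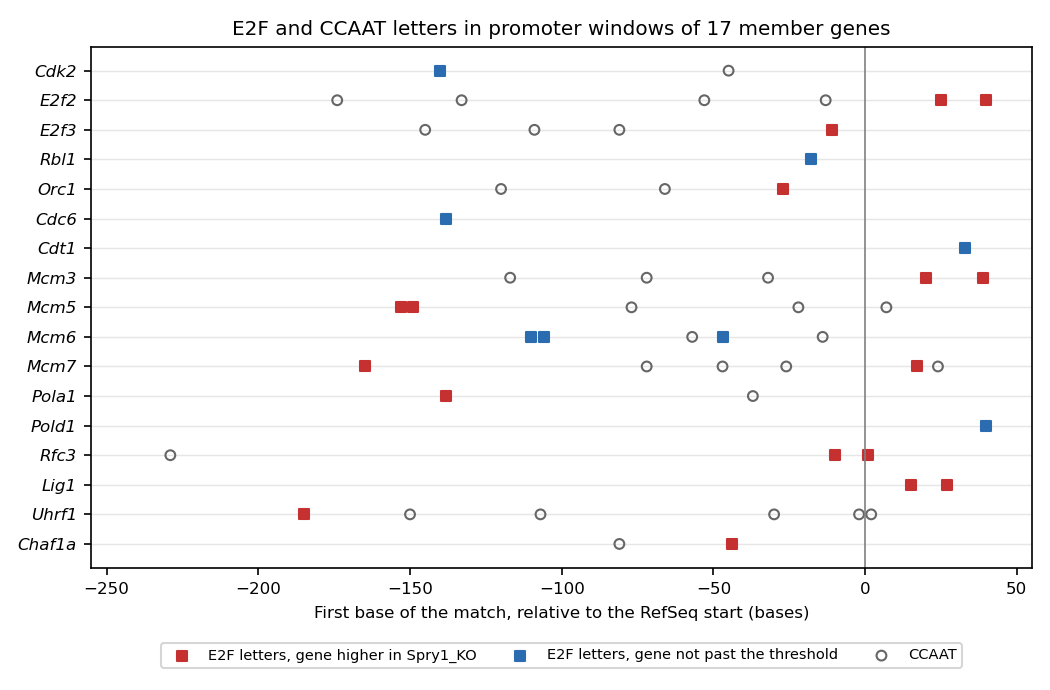
Position of each matched string relative to the RefSeq start, in bases, in the promoter windows of the 17 genes that hold an E2F string, with the windows of a gene overlaid. Filled squares are E2F strings, red for genes that rose and blue for genes that did not pass, and open circles are CCAAT; E2F strings lie on both sides of the start.

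Helicase activation turns loaded MCM into a moving helicase with Cdc45 and GINS. For this step 2 of the 4 genes rose, where 29.6% of all genes tested rose. Mcm10, which acts at this step, rose from 0.321, 0.320 and 1.03 FPKM to 2.27, 2.20 and 1.83 FPKM (log2 change 1.02, SE 0.20, adjusted p = 0.00481, limma; ratio 3.77). Control replicate 3 lay between the other controls and the knockouts. The GINS subunit Gins1 rose from 3.91, 2.99 and 6.84 FPKM to 9.82, 9.01 and 10.4 FPKM (log2 change 1.003, adjusted p = 0.0104, limma). Gins2, a subunit of the same complex, was at 3.24, 3.31 and 5.94 FPKM in the controls and at 4.23, 3.69 and 4.27 FPKM in the knockouts (log2 change 0.01, SE 0.20, adjusted p = 0.973, limma). Its exons share 67.3% of their bases with Gse1, and the sources used here do not say whether reads were counted by strand. Cdc45 was at 1.89, 1.97 and 4.13 FPKM in the controls and at 4.80, 4.08 and 4.18 FPKM in the knockouts (adjusted p = 0.0599, limma; 0.000865 without Control replicate 3).

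Of the 9 genes for polymerases, the sliding clamp and Okazaki fragment joining, 6 rose and none fell, where 29.6% of all genes tested rose. Pcna, the clamp that tethers polymerases to DNA, was the most abundant of all 41 genes and rose from 56.6, 58.2 and 71.2 FPKM to 93.7, 89.0 and 89.0 FPKM (log2 change 0.55, SE 0.11, adjusted p = 0.00495, limma). A named pseudogene copy, Pcna-ps2, was at means of 1.03 and 1.12 FPKM. The clamp loader subunit Rfc4 rose from 7.70, 8.74 and 11.1 FPKM to 15.4, 16.3 and 17.3 FPKM (log2 change 0.78, SE 0.13, adjusted p = 0.00266, limma). Rfc3, of the same loader, had the smallest change of the genes that rose (log2 change 0.28, SE 0.09, adjusted p = 0.0395, limma), and leaving out any sample except Control replicate 3 ended its call (adjusted p = 0.0846 to 0.122, limma). Lig1, the ligase that joins Okazaki fragments, rose from 5.43, 6.13 and 12.4 FPKM to 17.3, 16.6 and 14.4 FPKM (log2 change 1.01, SE 0.27, adjusted p = 0.0174, limma). Its call ended without Control replicate 1 or 2 or without knockout replicate 1 or 2 (adjusted p = 0.0512 to 0.0576, limma). The flap nuclease gene Fen1 was at 0.770, 0.993 and 0.699 FPKM in the controls and at 2.20, 1.78 and 1.41 FPKM in the knockouts (log2 change 0.61, SE 0.15, adjusted p = 0.0121, limma). With Ccnd2 it was 1 of 2 genes in which Control replicate 3 was the lowest control, and 78.8% of its exon bases are shared with Gm10143.

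Of the 4 polymerase and primase genes only Pola1 passed. Pola1, the catalytic subunit of the priming polymerase, rose from 2.37, 3.05 and 3.87 FPKM to 4.94, 4.71 and 5.10 FPKM (log2 change 0.55, SE 0.14, adjusted p = 0.0157, limma; 0.0534 without knockout replicate 3). Its partner primase Prim1 was at 10.6, 8.64 and 12.9 FPKM in the controls and at 10.3, 11.2 and 9.77 FPKM in the knockouts (log2 change -0.02, SE 0.14, adjusted p = 0.907, limma). Pold1, the catalytic subunit of the lagging-strand polymerase, was at 3.95, 4.81 and 10.02 FPKM in the controls and at 7.99, 7.79 and 5.75 FPKM in the knockouts (adjusted p = 0.503, limma; 0.0181 without Control replicate 3). Pole, that of the leading-strand polymerase, was at 0.998, 0.769 and 1.92 FPKM and at 2.06, 2.16 and 1.48 FPKM (adjusted p = 0.145, limma; 0.0158 without Control replicate 3). In Pold1 the highest of the 6 samples was Control replicate 3, while in Pole it lay inside the range of the knockouts.

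All 4 genes of deoxynucleotide synthesis rose. Rrm2, the regulated subunit of ribonucleotide reductase, was at 5.25, 5.43 and 10.8 FPKM in the controls and at 34.1, 37.8 and 29.6 FPKM in the knockouts (log2 change 2.15, SE 0.25, adjusted p = 0.000554, limma; ratio 4.73). The lowest knockout was far above Control replicate 3, the highest control, and Rrm2 was the third most abundant of the 41 genes in the knockouts. Rrm1, the large subunit of the same enzyme, rose from 6.10, 7.34 and 8.53 FPKM to 14.7, 15.5 and 12.9 FPKM (log2 change 0.89, SE 0.13, adjusted p = 0.00138, limma). The ratio of Rrm2 to Rrm1, chosen after the values were seen, was 0.860, 0.740 and 1.27 in the controls and 2.33, 2.44 and 2.30 in the knockouts. Tyms, thymidylate synthase, rose from 2.55, 2.69 and 4.74 FPKM to 7.36, 8.08 and 7.67 FPKM (log2 change 1.04, SE 0.19, adjusted p = 0.00344, limma). Tk1, the thymidine kinase of S phase, rose from 3.42, 3.81 and 8.13 FPKM to 11.98, 13.3 and 10.22 FPKM (log2 change 1.14, SE 0.27, adjusted p = 0.0115, limma). All 4 genes also rose under TPM scaling and with any single sample left out.

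Both genes that act on chromatin behind the fork rose. Uhrf1, which guides maintenance DNA methylation, was at 6.71, 5.89 and 15.6 FPKM in the controls and at 22.5, 19.7 and 17.1 FPKM in the knockouts (log2 change 1.11, SE 0.32, adjusted p = 0.0247, limma). Leaving out any sample other than Control replicate 3 ended its call (adjusted p = 0.0503 to 0.0783, limma). Chaf1a, the large subunit of the histone chaperone CAF-1, rose from 1.51, 1.79 and 2.73 FPKM to 4.36, 4.13 and 3.99 FPKM (log2 change 0.80, SE 0.16, adjusted p = 0.00503, limma), although 52.5% of its exon bases are shared with Ubxn6.

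In all 14 genes that did not pass, the groups overlapped and Control replicate 3 was the highest control. In 12 of them every knockout was above Control replicates 1 and 2. Over all 41 genes that layout was found in 37. Its share over all genes tested was not counted, but is at least the 34.9% in which the knockouts lay above all 3 controls. Its share among genes that did not pass was not counted either, so the 12 have no rate to be read against. Over the 41 genes, Control replicate 3 was the highest control in 36 (87.8%), against 38.4% of all genes tested. It was above every knockout in 9 of the 41, and the share of all genes in which it was so was not counted. The median ratio of Control replicate 3 to the mean of the other controls was 1.53 over the 41 genes and 0.98 over all genes tested. The knockout mean over the same base had a median ratio of 2.04 for the 41 genes and 1.03 for all genes. Without this sample, Mcm6, Mcm2, Cdk2, Pold1, Cdt1, Rbl1, Cdk6, Cdc45 and Pole also passed as higher, while E2f1, Gins2, Cdc6, Prim1 and Ccnd1 did not (limma). As it was the highest control in each of these 14 genes, its removal could only raise their log2 changes. Leaving out any other single sample left 22 of the 41 genes higher, against 25 with all 6. What set Control replicate 3 apart was not tested.

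**Figure D5:**
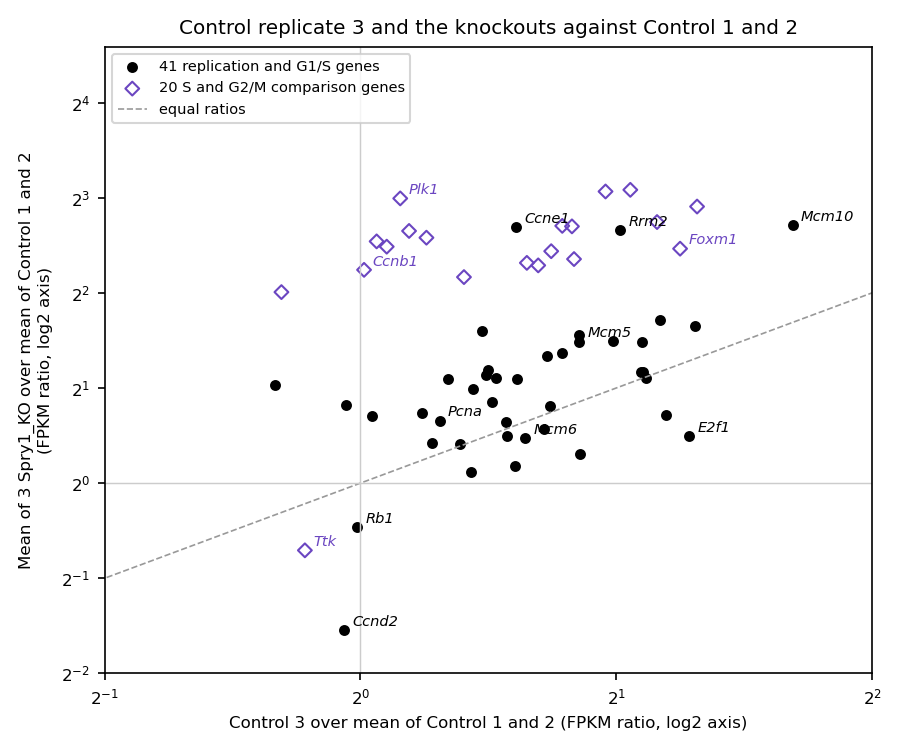
For each of the 41 genes (filled points) and of 20 S and G2/M genes (open diamonds), the ratio of Control replicate 3 (horizontal) and of the knockout mean (vertical) to the mean of Control replicates 1 and 2, on log2 axes; the dashed line marks equal ratios. The 41 genes have median ratios of 1.53 and 2.04, and the diamonds, except Ttk, lie higher above the line than most of them.

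Of 40 further replication genes that passed the filter, 18 rose, none fell and 22 did not pass (median log2 change 0.44), where 29.6% of all genes rose. Under TPM scaling 7 of these 40 rose, a share near the 16.1% of all genes that rose there. Only 3 of the 40 fell, where 4506 of all 12673 genes fell. The median log2 change was then 0.175 for these genes and -0.206 for all genes tested. Dbf4, the activator of the Cdc7 kinase that fires origins, rose by a log2 change of 1.33 (adjusted p = 0.000137, limma). Pclaf, a Pcna-binding factor, rose by 2.23 (adjusted p = 0.00169, limma), with Rnaseh2a (0.81, adjusted p = 0.000426, limma), a subunit of an RNase H, and the polymerase subunit Pold2 (0.92, adjusted p = 0.00167, limma). Of 15 further nucleotide synthesis genes, 12 rose and 2, Rrm2b and Tk2, fell (median 0.65). These 2 encode the ribonucleotide reductase subunit used outside S phase and the mitochondrial thymidine kinase. Nme1 (1.37), the purine enzyme Gart (1.14), and the pyrimidine enzymes Umps (0.81) and Cad (1.46) had the lowest p-values of those that rose (adjusted p = 0.000149, 0.000529, 0.000881 and 0.000912, limma). Of 7 further chromatin genes, 4 rose and none fell: the histone chaperones Asf1b (1.53) and Chaf1b (0.74), the chromatin remodeller Hells (0.69) and the maintenance methyltransferase Dnmt1 (0.52), with adjusted p-values of 0.00316, 0.0465, 0.0221 and 0.023 (limma). Of these, only Asf1b passed with any single sample left out. Leaving out Control replicate 1 or 2 or knockout replicate 1 or 2 left 1 of the 7 past the threshold, and leaving out knockout replicate 3 left 2. Tk2 likewise passed only with all samples or without Control replicate 3 (otherwise adjusted p = 0.0514 to 0.104, limma).

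Of 13 further E2F and pocket protein genes, 6 rose and 2, Tfdp2 and Lin52, fell (median 0.21). Of all genes tested, 29.6% rose and 24.4% fell. The E2F partner Tfdp1 rose by a log2 change of 0.96 (adjusted p = 0.000236, limma), and E2f4, which acts mainly with pocket proteins as a repressor, by 0.90 (adjusted p = 0.00113, limma). The repressors E2f8 and E2f7 rose by 1.40 and 1.01 (adjusted p = 0.00116 and 0.00301, limma). Activators and repressors of the family were thus both among the genes that rose. Lin52 passed only with all samples or without Control replicate 3 (otherwise adjusted p = 0.0516 to 0.0876, limma). Under TPM scaling 3 of the 12 genes then tested rose and 4 fell, where 2038 of all 12673 genes rose and 4506 fell. The median log2 change was then -0.061 for this list and -0.206 for all genes tested.

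Of 12 tested genes for CDK inhibitors and other G1/S regulators, 5 rose and 2 fell (median 0.09). Over all genes tested, 29.6% rose and 24.4% fell, so the counts of this list are not far from those shares. Cks1b, a cyclin-dependent kinase subunit that also serves in the degradation of p27, was at 8.48, 8.31 and 11.7 FPKM in the controls and at 39.2, 40.3 and 39.2 FPKM in the knockouts (log2 change 1.97, SE 0.13, adjusted p = 6.9e-05, limma). Fbxo5, an inhibitor of the anaphase-promoting complex, rose by 0.80 (adjusted p = 0.00144, limma) and Skp2, of the ligase that degrades p27, by 0.39 (adjusted p = 0.044, limma; 0.0641 to 0.133 with any sample but knockout replicate 3 left out). The inhibitors of Cdk4 and Cdk6 differed in direction. Cdkn2d rose by 0.61 and Cdkn2c by 0.40 (adjusted p = 0.00182 and 0.00561, limma), while Cdkn2b fell from 18.04, 19.9 and 15.9 FPKM to 10.35, 10.03 and 13.03 FPKM (log2 change -0.65, adjusted p = 0.00502, limma). Ccnt1, a transcription elongation cyclin, fell by 0.41 (adjusted p = 0.0128, limma). Cdkn1a (log2 change -0.20), Cdkn1b (-0.30), Cdc25a (-0.34), Fbxw7 (-0.28) and Myc (0.56) did not pass (adjusted p = 0.0568 to 0.255, limma). Myc was at 25.04, 26.6 and 59.7 FPKM in the controls and at 55.8, 51.0 and 46.4 FPKM in the knockouts, with Control replicate 3 again the highest, and it passed without that sample (log2 change 0.96, adjusted p = 0.000618, limma), as did Cdkn1b in the lower direction (adjusted p = 0.0199, limma). Cdkn1c and Mycn were below the filter. Under TPM scaling 2 of these 12 genes rose and 6 fell, where 2038 of all 12673 genes rose and 4506 fell. The median log2 change was then -0.166 for these genes and -0.206 for all genes tested.

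Genes used later in the cycle had larger changes. Of 20 S and G2/M genes 19 rose and 1, Ttk, fell, with a median log2 change of 1.95 against 0.65 for the 41 replication and G1/S genes; no test of the difference between the lists was run. Cyclin B2 (Ccnb2, log2 change 2.33), the centromeric histone Cenpa (2.02), the anaphase activator Cdc20 (2.44) and the mitotic kinase Plk1 (2.52) had the lowest p-values (adjusted p = 2.6e-05 to 7.6e-05, limma). The call of Ttk ended without Control replicate 1 or 2 or knockout replicate 1 or 3 (adjusted p = 0.0524 to 0.0659, limma). The count that rose was also 19 under TPM scaling and without Control replicate 3. The median ratio of Control replicate 3 to the other controls was 1.60 over these 20 genes, near that of the replication genes, and the median ratio of the knockouts was 5.71. In the promoter windows of 16 of them the E2F strings were found for 1 (6.25%) and CCAAT for 14 (87.5%).

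Markers of the cell types of the tissue were counted in the same way, on lists of 3 to 7 tested genes. Of all genes tested, 29.6% rose and 24.4% fell. On lists this short, counts in both directions, as for the suprabasal and hair matrix markers, are not read as a change of the cell type. In bulk RNA, fewer cells of a type and less RNA per cell cannot be told apart. Of 7 basal keratinocyte markers 2 rose and 4 fell, and their summed level was 10020 to 10990 FPKM in the controls and 17400 to 21630 FPKM in the knockouts. The higher sum came from the keratin genes Krt14 (mean 2706 to 11060 FPKM) and Krt5 (3962 to 6878 FPKM), while Krt15 (3323 to 779 FPKM), Col17a1, Itga6 and Trp63 fell. These genes are named after their values were seen. Trp63 passed narrowly (adjusted p = 0.0491, limma) and its groups overlapped. With any single sample but Control replicate 3 left out, 3 basal markers fell rather than 4. Of 7 suprabasal markers 3 rose and 3 fell, with sums of 7345 to 7829 FPKM and 5344 to 7609 FPKM. The 5 melanocyte markers all rose, from a sum of 7.93 to 11.01 FPKM to one of 206.8 to 210.6 FPKM. Of 6 tested Langerhans and myeloid markers 5 fell and 1 rose (911.9 to 1500 FPKM against 300.8 to 481.9 FPKM, with Ly6g at 0 in all controls), and of 7 T cell markers 4 fell and 1 rose (63.96 to 90.28 FPKM against 31.15 to 63.45 FPKM). Of 5 tested fibroblast markers 3 fell (7.593 to 16.38 FPKM against 1.995 to 6.811 FPKM), all 5 tested skeletal muscle markers fell (16.08 to 59.33 FPKM against 3.895 to 5.73 FPKM), and of 3 tested hair follicle matrix markers 1 rose and 1 fell (7.008 to 11.77 FPKM against 7.739 to 14.06 FPKM, with Krt35 at 0 in all knockouts). Several of these marker counts moved when single samples were left out: 1 fibroblast marker fell without Control replicate 3 (of 4 tested) or knockout replicate 1 (of 5), 2 without Control replicate 1 or knockout replicate 2, and 5 without knockout replicate 3, while fewer muscle markers passed the filter without Control replicate 1 (2 of 3 tested fell) or Control replicate 2 (3 of 4 fell). The T cell marker that rose did not pass without Control replicate 1 or knockout replicate 1 or 3, and the hair matrix marker that fell passed only with all samples or without knockout replicate 2. The part of these cell types in the changes of the replication genes was not tested.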

How the data were processed

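Back epidermis RNA was sequenced in 3 Control and 3 knockout samples; 0.4 ug of RNA went into each library, per the labels' protocols. The authors deposited 1 table of FPKM values for 54532 genes with a column per sample. HISAT2 2.0.5, featureCounts 1.5.0-p3 and the build GRCm38 (mm10) are named in the submitters' processing notes. The sources used here give no annotation release, strandedness or formula for FPKM. Without strand, reads from overlapping genes cannot be separated, and 18 of the 41 genes share exon bases with another gene. FPKM multiplied by GENCODE M21 exon length (54409 gene IDs matched) gave whole reads, within 0.1, for 97.0% to 97.3% of values. The 41 genes had between 33 and 7488 recovered reads per sample. A read total used for scaling that differs from the summed reads, or a few abundant genes, can shift all other FPKM values. The totals read from the steps were 98.8% to 102.9% of the summed reads for controls and 88.1% to 95.6% for knockouts, and the 10 most abundant genes held 12.6% to 16.0% and 18.6% to 22.2% of the FPKM sum.

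Genotype was the single term of a two-sided limma-trend model (limma 3.58.1, R 4.3.3) of log2(FPKM + 1). It was fitted to genes whose mean over the 6 samples reached 1 FPKM, with Benjamini-Hochberg adjustment and a threshold of 0.05; the fit was tested on simulated data. No test was run over a list of genes. The members and lists were chosen with earlier results of these data known. Named genes are the 41 members, Spry1, up to 4 genes past the threshold with the lowest p in each other list, and all tested CDK inhibitors and G1/S regulators; genes that fell in a list where most rose, and Msh3 and Mycn, were named after their values were seen. Alternatives were another pseudocount, filter or scaling, limma-voom on recovered reads, array weights, a replicate block, protein-coding genes only, a minimum change of 2-fold, and leaving out samples.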

Additional observations from a re-analysis of the deposited data

How the results depend on the processing

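Direction over the tested alternatives was checked for the 41 genes, Spry1 and the named genes of the further replication and cell cycle lists. None of those past the threshold changed direction. The number of the 41 genes that rose was 15 under TPM scaling and 10 with a minimum change of 2-fold (1 fell), 34 with array weights and 22 to 34 with 1 sample left out, against 25. Over all genes, TPM scaling gave 2038 higher and 4506 lower, a 2-fold minimum 1024 higher and 1010 lower, and a mean of at least 5 FPKM 1700 lower. limma-voom on recovered reads called 2764 genes higher and 3612 lower. The labels do not say whether replicate numbers pair the samples. Deviations from the group means of same-numbered samples correlated at -0.098, -0.111 and -0.125 across genes, and those of differently numbered samples at -0.043 to 0.147. With 3 samples in each group, such values cannot show whether samples were paired. With the number as a replicate block, 24 of the 41 genes rose, without Rfc3 (adjusted p = 0.071, limma), and counts of other lists under the block are given with the rest.

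Among the 41 genes, TPM scaling gave 2 G1 cyclins and kinases, 1 E2F or pocket gene, 1 polymerase, clamp and Okazaki gene and 1 chromatin gene higher. A minimum of 5 FPKM, which also left fewer genes to test, gave 2 of 6 G1 cyclins and kinases, 1 of 4 E2F and pocket genes, 1 of 1 for helicase activation and 1 of 1 for chromatin, and a 2-fold minimum gave 1 G1 cyclin, 0 E2F or pocket genes in either direction, 2 licensing genes, 1 polymerase group gene and 1 chromatin gene. Licensing genes numbered 8 with array weights and 8 without Control replicate 3 and knockout replicate 2 together, where the E2F and helicase groups each had 4; 5 to 8 rose with 1 sample left out. The chromatin group had 1 without the filter and 1 to 2 with 1 sample left out.

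In the other lists, replication genes numbered 7 higher and 3 lower under TPM scaling, 5 higher with a 2-fold minimum, 3 lower when scaled to recovered reads or with limma-voom, 1 lower with array weights or without both samples that stood apart, and 0 to 1 lower with 1 sample left out. Nucleotide genes numbered 5 higher under TPM scaling and 3 with a 2-fold minimum (0 lower), and 1 was lower without the filter, with 5 FPKM, under the replicate block, without both samples and in 1 to 2 with 1 left out. Chromatin genes higher numbered 2 without the filter, with 5 FPKM, with limma-voom and under the block, 1 under TPM scaling, recovered reads and the 2-fold minimum, and 1 to 4 with 1 sample left out. E2F and pocket genes numbered 2 higher and 0 lower with 5 FPKM or a 2-fold minimum, 3 higher and 4 lower under TPM scaling, and 1 lower without the filter, under the block and without both samples, with 1 to 3 lower when 1 was left out. CDK inhibitors and regulators numbered 2 higher and 6 lower under TPM scaling, 5 lower under recovered reads or limma-voom, and 1 higher and 0 lower with a 2-fold minimum. Of the S and G2/M genes 0 were lower without the filter or with a 2-fold minimum, and 0 to 1 with 1 left out.

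Among markers, 1 basal gene was higher without the filter, under the block, without both samples and with a 2-fold minimum (2 lower). No T cell marker (0) was higher without the filter or over protein-coding genes, and 0 to 1 with 1 left out. limma-voom gave 2 of 3 tested myeloid markers lower. No fibroblast marker reached a mean of 5 FPKM, so that setting gave no value; those lower numbered 5 under TPM scaling, recovered reads, limma-voom and array weights, 1 without both samples and with a 2-fold minimum, and 1 to 5 with 1 left out. Muscle markers lower numbered 2 of 2 tested with 5 FPKM and 2 to 5, of 3 to 5 tested, with 1 left out. Hair matrix markers numbered 0 higher and 0 lower with 5 FPKM (1 tested) or a 2-fold minimum, 0 lower under the block, 2 lower without both samples, and 0 to 1 lower with 1 left out.

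Genes that did not pass could change sign. Under TPM scaling, E2f1 (log2 change -0.21), Gins2 (-0.22), Mcm6 (-0.026) and Cdc6 (-0.005) were negative. With recovered reads E2f1 was at -0.086 and Gins2 at -0.10, and with limma-voom at -0.093 and -0.11. With array weights Ccnd1 was at 0.13 and Prim1 at 0.09, and Prim1 was at 0.063 without both samples. With 1 sample left out, Ccnd1 ranged from -0.21 to 0.15, E2f1 from -0.18 to 0.39, Gins2 from -0.11 to 0.24 and Prim1 from -0.15 to 0.11. TPM scaling differs from the deposited scale by the FPKM sums of the samples; the cause of the other changes was not tested. Genes under 2 FPKM in the controls (7 of the 41) rest on the fewest reads.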
